A study of Drosophila melanogaster with 3 samples.

Results

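The Notch pathway genes described here are the receptor gene N, the ligand genes Dl and Ser, the DNA-binding factor gene Su(H), its corepressor gene H, the coactivator gene mam, and fng, neur and kuz, which modify, traffic or cleave the receptor and its ligands. The rule lists the 9 genes by name and sets no threshold on their signal, and they are 9 of 13968 protein-coding genes in the annotation used, where Dl carries the name Delta. All peaks whose summit lay in the gene body or within 5 kb of it were taken, which gave 44 of the 6469 peaks of the thresholded set.

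The measurement was chromatin immunoprecipitation followed by sequencing (ChIP-seq) with an antibody against GFP, on whole white prepupae, the stage at which the larva has just formed its puparium. Per the labels, every sample came from 1 transgenic line that stably expresses CG8632 (ZnT49B) with GFP at its C-terminal end, male and female animals were pooled, and sonication gave fragments of 200 to 800 bp. There were 3 samples of this 1 group, labelled biological replicates 1 to 3, so no condition could be compared and no test applied. The control library was not analysed here, so whether a peak depends on the fusion protein was not tested, and whole animals give no tissue for a peak.

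The authors' set of peaks that passed an irreproducible discovery rate (IDR) threshold is called the IDR set. It is the top 6469 of 30000 calls made on the pooled replicates, and rank 1 is the highest signal, the peak strength that the authors' caller wrote for each interval. Each replicate has a longer list of its own, of 30000, 29322 and 30000 calls, which on purpose includes background. The median signal of these lists was 20.0, 14.9 and 20.6, so signals of replicate 2 run lower, and ranks within a list are given beside them. A call ranked 6469 or better in its own list is called strong, which meant a signal of at least 42.7, 26.7 and 41.0 in replicates 1, 2 and 3. The depth of sequencing is unknown, as is the scaling of signal between libraries, so the SD over replicates may include differences of scale.

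Notch is a cell surface receptor that is activated by the membrane-bound ligands Delta and Serrate on a neighbouring cell. Ligand binding exposes the receptor to cleavage by the metalloprotease Kuzbanian and then by gamma-secretase, and the freed intracellular domain enters the nucleus. There it joins Suppressor of Hairless and Mastermind on DNA and switches target genes on, among them the Enhancer of split genes, while without signal Suppressor of Hairless and Hairless keep them off. In flies the pathway is known for choosing sensory organ precursors and for drawing the wing margin in the imaginal discs.

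The sequence under the strongest peak is shown for N, Dl, Ser, neur and kuz, so that the letters at the summits can be read beside the values. Those of mam and fng are not shown. Each line is the 201 bp centred on the summit, from the Release 6 (dm6) genome, plus strand, 5′ to 3′, and capitals mark any match, on either strand, to 6 kinds of word. They were the Su(H) core, searched as GTGGGAA and with its variant GTGAGAA, the word GAGAG of the Trithorax-like factor, the core ATCGATA of the DNA replication-related element, the E-box CANNTG, the word AGATAA of GATA factors and the word CAGGTA of Zelda.
N chrX:3162442-3162642: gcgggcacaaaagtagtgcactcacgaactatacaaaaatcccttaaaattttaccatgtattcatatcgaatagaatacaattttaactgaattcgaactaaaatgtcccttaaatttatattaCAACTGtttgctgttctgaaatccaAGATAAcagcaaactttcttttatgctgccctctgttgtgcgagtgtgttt
Dl chr3R:19314360-19314560: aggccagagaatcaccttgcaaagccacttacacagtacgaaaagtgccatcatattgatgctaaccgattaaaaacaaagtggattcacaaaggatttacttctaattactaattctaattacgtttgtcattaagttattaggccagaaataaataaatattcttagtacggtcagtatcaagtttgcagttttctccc
Ser chr3R:27171118-27171318: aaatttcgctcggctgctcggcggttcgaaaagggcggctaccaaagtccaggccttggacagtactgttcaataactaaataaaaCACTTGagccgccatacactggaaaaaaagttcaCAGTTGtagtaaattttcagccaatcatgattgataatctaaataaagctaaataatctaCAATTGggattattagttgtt
neur chr3R:9031920-9032120: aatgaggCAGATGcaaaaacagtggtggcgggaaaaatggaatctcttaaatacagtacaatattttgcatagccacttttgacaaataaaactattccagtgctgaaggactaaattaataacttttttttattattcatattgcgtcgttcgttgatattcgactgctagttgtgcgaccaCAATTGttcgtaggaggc
kuz chr2L:13571029-13571229: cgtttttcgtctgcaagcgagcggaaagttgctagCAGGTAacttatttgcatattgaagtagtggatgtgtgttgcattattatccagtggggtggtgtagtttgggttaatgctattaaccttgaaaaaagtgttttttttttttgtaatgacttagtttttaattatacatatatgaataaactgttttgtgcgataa
The window of Dl held none of these words. CAGGTA was found in the window of kuz alone among the 44, and that of Ser, the weakest of the lines shown, held 3 E-boxes.

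A Su(H) core, the word that Suppressor of Hairless is known to bind, was found in 2 of the 44 windows, one at Dl and one at fng, and both are shown because the pathway's own transcription factor reads this word. This choice was made with the matches in view, and here capitals mark the Su(H) core alone. The Dl window ranked 6010 and holds 2 of the words, and the fng window ranked 2275 and lies downstream of the gene.
Dl chr3R:19321781-19321981: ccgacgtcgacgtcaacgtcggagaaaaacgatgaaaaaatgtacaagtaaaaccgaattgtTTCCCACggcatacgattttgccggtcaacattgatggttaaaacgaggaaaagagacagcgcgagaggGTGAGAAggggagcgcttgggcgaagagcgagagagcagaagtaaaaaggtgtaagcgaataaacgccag
fng chr3L:20923296-20923496: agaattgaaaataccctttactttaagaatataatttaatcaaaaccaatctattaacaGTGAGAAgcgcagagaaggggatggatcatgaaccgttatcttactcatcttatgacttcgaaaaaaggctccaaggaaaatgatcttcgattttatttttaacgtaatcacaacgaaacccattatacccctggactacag
The share with a Su(H) core was 4.55% of the 44 windows and 4.39% of all 6469 IDR windows. The other words were about as common at these genes as in the whole set. GAGAG stood in 20.5% of the windows against 21.9% of all, CANNTG in 52.3% against 57.4%, AGATAA in 18.2% against 14.8%, and CAGGTA in 2.27% against 3.85%. ATCGATA stood in none of the 44, against 3.68% of all. Median GC content was 33.6% in the 44 windows, with a range of 22.4% to 57.7%, and 33.3% in all IDR windows, while windows 1000 bp to either side of these summits had a median of 41.5% (n = 88). A match to so short a word is a description of the letters and shows no binding.

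Of the 9 genes, 7 had at least 1 IDR peak, beside 47.5% of all protein-coding genes. N had 4, Dl 5, Ser 4, mam 12, fng 9, neur 3 and kuz 7, while Su(H) and H had none. Long genes hold more peaks, and the 9 genes are long, with a median of 23.5 kb against 2.16 kb over all genes. All 7 members of 10 kb or more had a peak, beside 68.8% of the 1985 genes of that length. Neither of the 2 shorter members did, beside 43.9% of genes under 10 kb. Per length of gene and flanks the 9 genes together held 1.14 IDR peaks per 10 kb, against 0.568 over all genes. By this density fng, at 2.68 peaks per 10 kb, was above 97.3% of protein-coding genes, mam at 1.52 above 85.6%, Dl at 1.49 above 85.3%, Ser at 1.24 above 82.5%, neur at 1.03 above 80.8%, N at 0.845 above 69.9% and kuz at 0.705 above 61.5%. The body of kuz is 89.3 kb long and held 4 of its 7 peaks, while that of fng is 23.6 kb long and held 2 of its 9, the rest lying in the flanks.

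**Figure D1:**
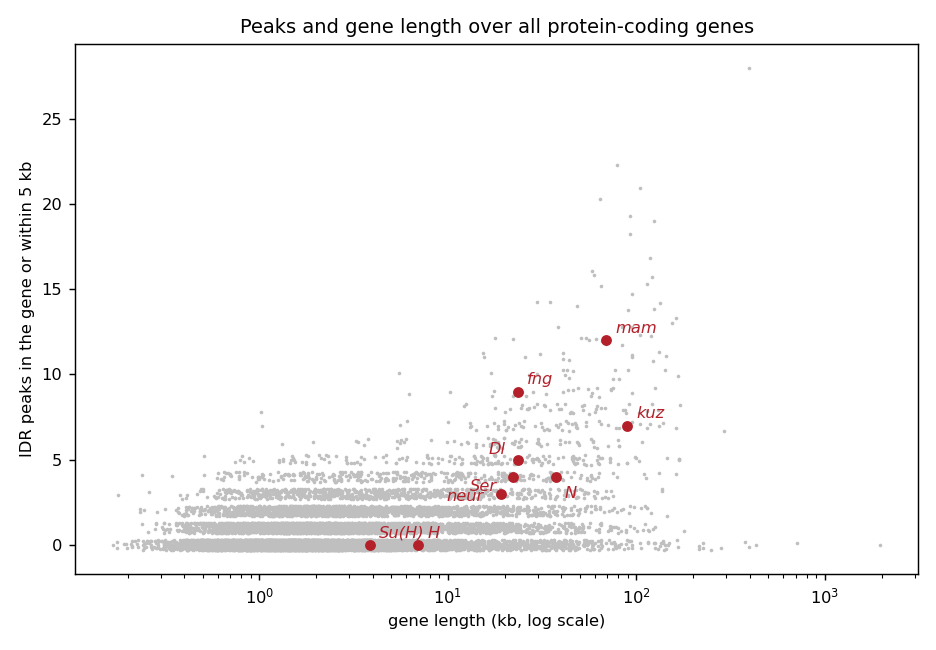
IDR peaks in each gene or within 5 kb against gene length in kb on a log scale, for all 13968 protein-coding genes in grey, spread by up to 0.3 vertically for display, and the 9 Notch pathway genes in red. The genes mam, fng and kuz stand at 12, 9 and 7 peaks, and Su(H) and H at 0 among the shorter genes.

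The peaks were mostly intronic. Of the 44, 31 lay in the gene bodies, 30 of them in introns and 1 in a 5′ UTR, while 10 lay upstream and 3 downstream, and no summit was in a coding exon. At 500 bp or less from one of their own start sites, an IDR summit was found for 4 genes, N, mam, fng and neur, beside 17.0% of all protein-coding genes. That share was not computed over genes of 10 kb or more. The peaks at the starts of N and fng were weak, at ranks 5677 and 5964. With only peaks above the middle of the set, 2 genes had one at a start. For 24 of the 44 peaks the start of another gene was nearer than any start of the member. This share and those by feature were not computed over the IDR set, so they are not shown to be particular to these genes. The strength of the 44 peaks was ordinary for the set: the median rank was 3773, against 3235 for the middle of the set, and 20 of the 44 ranked above that middle. Median signal was 167 against 189 over the IDR set.

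**Figure D2:**
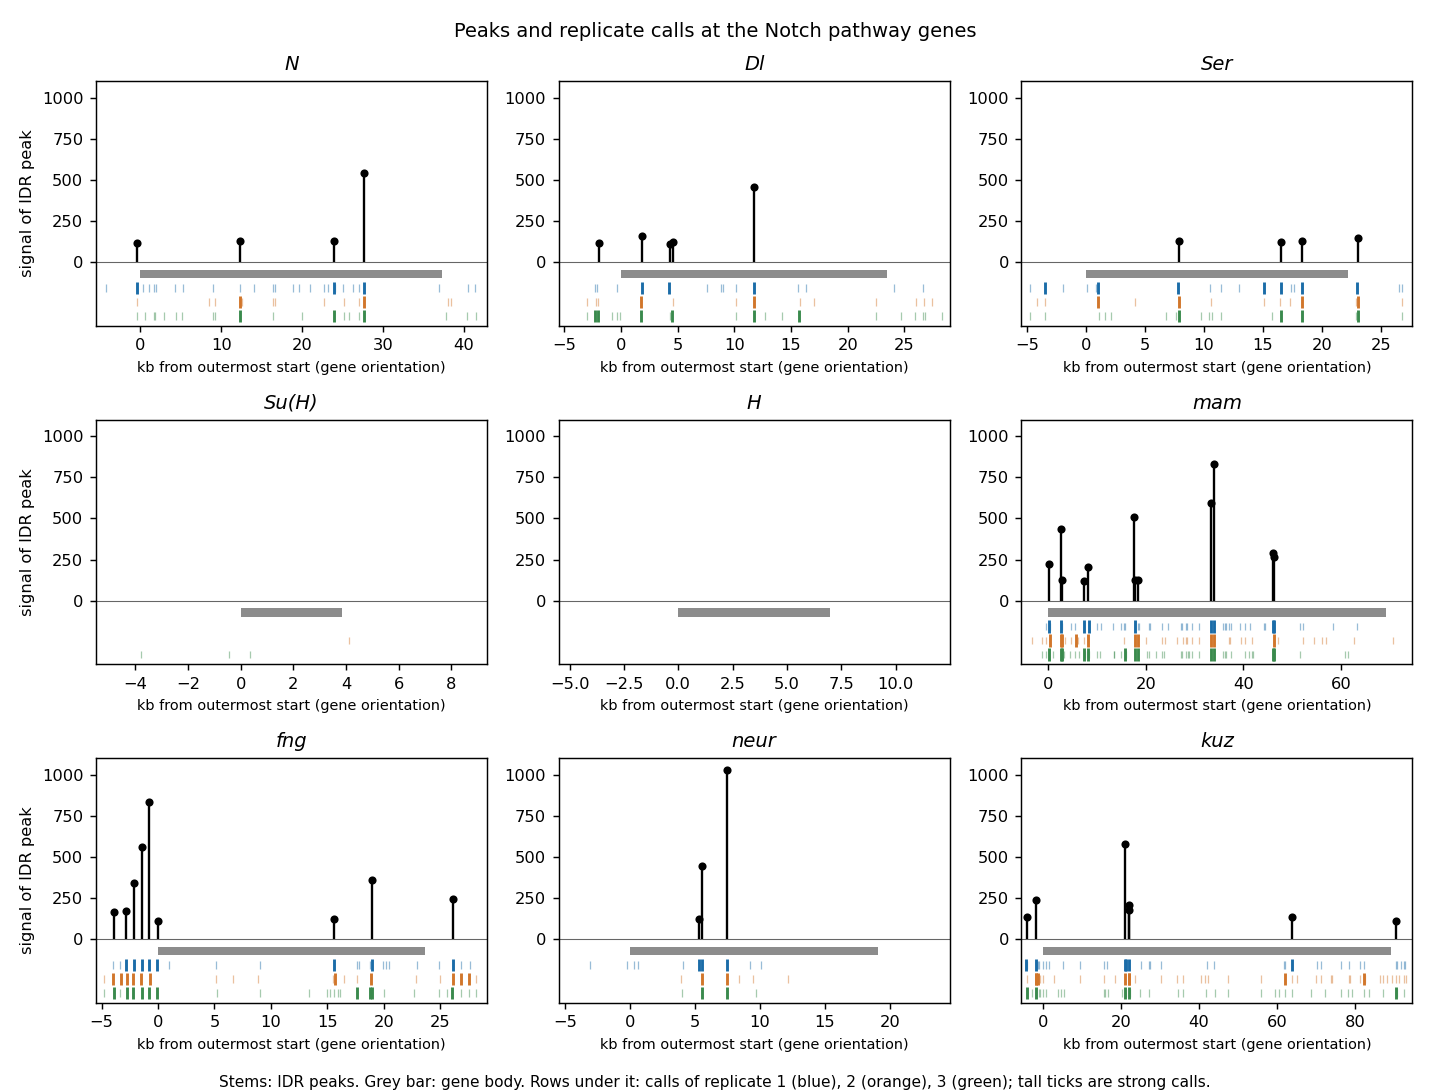
Signal of the IDR peaks (stems) along each gene, in kb from its outermost start in the direction of transcription, with the gene body as a grey bar and the calls of replicates 1 to 3 as coloured ticks under it, tall where strong. The peaks of fng gather upstream of its start, and those of neur and kuz that are highest stand inside the body, while Su(H) and H have no stem.

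N encodes the receptor (FBgn0004647, chrX:3134870-3172221, plus strand). Its strongest peak, chrX:3162406-3162666 in intron 5, ranked 630 with a signal of 539.5. Replicates 1, 2 and 3 gave signals of 219, 126 and 199.6 there (182 ± 49.1, SD, n = 3) and ranks of 593, 803 and 580. This peak thus stood high in every replicate, 27672 bp into the gene, and no start of N lies near it. The other 3 peaks of N were weak and ranked 5165 to 5677. One of them, chrX:3134281-3134716, was centred 371 bp upstream of the only annotated start and inside the body of kirre. It had signals of 53.1, 20.8 and 36.2 (36.7 ± 16.2, SD, n = 3) and was strong in replicate 1 alone, at rank 5061. The peak of intron 1 had signals of 36.8, 41.7 and 51.2, and that of intron 4 had 55.0 and 47.3 in replicates 1 and 3 and no call in replicate 2. In each replicate the peak at the start of N was lower than the one in intron 5.

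Dl (FBgn0000463, chr3R:19302731-19326217, minus strand) encodes the ligand Delta. Of its 5 peaks, the strongest was chr3R:19314391-19314576 in intron 3, at rank 870 with a signal of 457. Signals were 173, 118 and 158 (149 ± 28.4, SD, n = 3) at ranks 946, 891 and 901, so the replicates placed it at nearly the same rank. The others were weak. In intron 1 the peak 1810 bp from the start ranked 4034 and had signals of 58.6, 50.4 and 45.8, and it was strong in all 3 replicates. Also in intron 1 lay 2 overlapping peaks, ranked 5416 and 6010, neither with a call within 200 bp of its summit in every replicate. The first had none in replicate 1, and the second, which holds the 2 Su(H) cores, none in replicate 2. Replicate 1 did have a call at the second summit, with a signal of 45.9, and replicate 2 at the first, with 16.6. The peak 1985 bp upstream of Dl, ranked 5821, was nearer to the start of the non-coding gene lncRNA:CR44175, at 642 bp. The start of Dl itself had no IDR summit at 500 bp or less.

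Ser (FBgn0004197, chr3R:27172090-27194267, minus strand) encodes Serrate, the other ligand. Its 4 peaks were all weak, ranked 4371 to 5465, and none was above the middle of the set. The strongest, chr3R:27171000-27171435, lay 872 bp downstream of the gene. Its signals were 67.9, 27.0 and 57.8 (50.9 ± 21.3, SD, n = 3) at ranks 3683, 6397 and 4188, which made it strong in each replicate. The peaks of introns 4, 9 and 12 ranked 5084, 5465 and 5246, and their mean signals were 44.5 ± 13.5, 39.7 ± 14.7 and 43.2 ± 16.6 (SD, n = 3 each). The peaks downstream and in intron 4 were higher than that of intron 9 in all 3 replicates. A peak 5286 bp from the body, ranked 3953, fell just outside the window and would have been the strongest of Ser.

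Enzymes that act on the receptor or its ligands carried several of the strongest peaks. fng (FBgn0011591, chr3L:20925891-20949512, minus strand) encodes Fringe, a glycosyltransferase that adds sugar to Notch and changes which ligand it answers to. Of its 9 peaks, 6 lay upstream, from 26 to 3921 bp before its start. The strongest, at 758 bp upstream, ranked 218 with a signal of 833. It had signals of 348, 219 and 269 (279 ± 64.8, SD, n = 3) at ranks 185, 223 and 293. The next, chr3L:20950742-20951120 at 1420 bp upstream, had signals of 259, 155 and 201 (205 ± 52.3, SD, n = 3), and the third, at 2154 bp, had 172, 69.2 and 122. Signal thus fell peak by peak away from the one at 758 bp in each replicate over these 3 peaks. The peak closest to the start, 26 bp from it, was weak at rank 5964, with signals of 59.9 and 43.9 in replicates 1 and 3 and no call in replicate 2. The non-coding gene lncRNA:CR45243 starts in this stretch, 513 bp from the strongest summit and 149 bp from the second, and for the upstream peaks other than the closest it was the nearest start. Within the gene, a peak of intron 4 ranked 1304 with signals of 118, 72.1 and 168 (119 ± 47.8, SD, n = 3), and another ranked 5421, where the call of replicate 3 was at rank 18892. The peak 2495 bp downstream had signals of 118, 63.3 and 71.6.

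neur (FBgn0002932, chr3R:9020348-9039471, minus strand) encodes Neuralized, a ubiquitin ligase that makes ligands active by sending them into the cell. It held the strongest peak of all 9 genes, chr3R:9031843-9032174 in intron 1, at rank 130 with a signal of 1028. Replicates 1, 2 and 3 gave signals of 466, 240.2 and 307 (337 ± 116, SD, n = 3) at ranks 71, 183 and 203. This summit lay 1711 bp downstream of the inner of the 2 annotated starts. Before that inner start, at 204 and 415 bp, stood 2 overlapping peaks. The nearer ranked 924, with signals of 205, 91.3 and 144 (147 ± 57.1, SD, n = 3). The farther, ranked 5584, had a call of its own in replicate 1 alone, at a signal of 47.7, and shared the calls of its neighbour in replicates 2 and 3. No IDR peak lay at the outer start of neur.

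kuz (FBgn0259984, chr2L:13550139-13639411, plus strand) encodes Kuzbanian, the metalloprotease that cuts the receptor after ligand binding. The strongest of its 7 peaks, chr2L:13570979-13571140 in intron 3, ranked 557 with a signal of 577. Signals were 208, 108 and 269 (195 ± 81.4, SD, n = 3) at ranks 663, 1006 and 291. Farther down the same intron 2 overlapping peaks ranked 2864 and 3556, and shared 1 call in replicate 1, at a signal of 111. The remaining peaks were at the edges or far down the gene. Upstream, 2 peaks lay inside the neighbouring gene B4, at 1710 and 4185 bp from kuz, and B4 was the gene with the nearest start. The first of these ranked 2335, and the calls nearest to its summit had signals of 16.9, 38.3 and 65.6 (40.3 ± 24.4, SD, n = 3), with rank 17897 in replicate 1. Stronger calls lay a little farther off, at 105 bp in replicate 1 with a signal of 119 and rank 1707, and at 164 bp in replicate 2 with 70.7 and rank 1906, which would bring the mean to 85.2. A peak in intron 5 ranked 4926, with signals of 73.7, 23.6 and 32.4, and one in the neighbour ics, 1272 bp downstream of kuz, ranked 6188. The start of kuz had no IDR summit at 500 bp or less.

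mam (FBgn0002643, chr2R:13991203-14060356, plus strand) encodes Mastermind, the coactivator that binds the intracellular domain of Notch with Suppressor of Hairless. With 12 peaks, all within its body of 69.2 kb, it had more than 99.7% of protein-coding genes. The highest, chr2R:14024983-14025318 in intron 3, ranked 221 with a signal of 832. It had signals of 320.0, 176 and 358 (285 ± 96.1, SD, n = 3) at ranks 231, 394 and 124. A second peak of the same intron, chr2R:14024401-14024702, ranked 520 with signals of 257, 170.4 and 196 (208 ± 44.4, SD, n = 3), and the start of CG18371, a gene within mam, was nearer to both than any start of mam. In each replicate the first was higher than the second, in replicate 2 only slightly. At the outermost start, 207 bp inside the 5′ UTR, was a peak of middle strength at rank 2607, with signals of 91.9, 49.9 and 87.2 (76.4 ± 23.0, SD, n = 3). Around an inner start lay 3 more, at 338 and 132 bp before it and 380 bp after it. The first ranked 705, with signals of 217, 147 and 149 (171 ± 39.9, SD, n = 3), and the second, ranked 5205, shared its call in every replicate. A further pair in intron 2 ranked 948 and 5150. The calls nearest to the weaker summit of that pair differed greatly between replicates, with signals of 12.6, 73.0 and 107 at ranks 24623, 1829 and 1744. In replicate 1 the call matched to the stronger summit, with a signal of 161 and rank 1062, lay 187 bp from the weaker. Taking it would bring the mean from 64.1 to 114. In intron 3 a pair of peaks ranked 1746 and 1979. The first summit had signals of 138 and 100.2 in replicates 1 and 3 and no call within 200 bp in replicate 2. The second had 114, 47.9 and 92.0, and its call in replicate 2 lay just beyond that distance from the first.

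Su(H) (FBgn0004837, chr2L:15039488-15043334, plus strand) encodes Suppressor of Hairless, the factor that takes the pathway to DNA, and H (FBgn0001169, chr3R:20621938-20628915, plus strand) encodes Hairless, its corepressor. Neither had an IDR peak. Within 5 kb of Su(H), replicate 1 had no call, replicate 2 had 1 at rank 14594 with a signal of 15.0, and replicate 3 had 3, the best at rank 7767 with a signal of 35.3. H had no call of any rank in any replicate, which made it the 1 member without any, beside 6.18% of all protein-coding genes. These are short genes, of 3.85 and 6.98 kb, and with the depth unknown a missing call says only that nothing was listed there.

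Set side by side, the strongest peaks of neur, fng and mam ranked 203, 293 and 394 or better in every replicate, those of N, Dl and kuz 803, 946 and 1006 or better, and that of Ser 6397 or better. By mean signal the order was neur, mam, fng, kuz, N, Dl and Ser, at 337 ± 116, 285 ± 96.1, 279 ± 64.8, 195 ± 81.4, 182 ± 49.1, 149 ± 28.4 and 50.9 ± 21.3 (SD, n = 3 each). The replicate values of neighbours in this order overlapped except for Dl and Ser, where the lowest replicate of Dl, at 118, was above the highest of Ser, at 67.9.

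**Figure D3:**
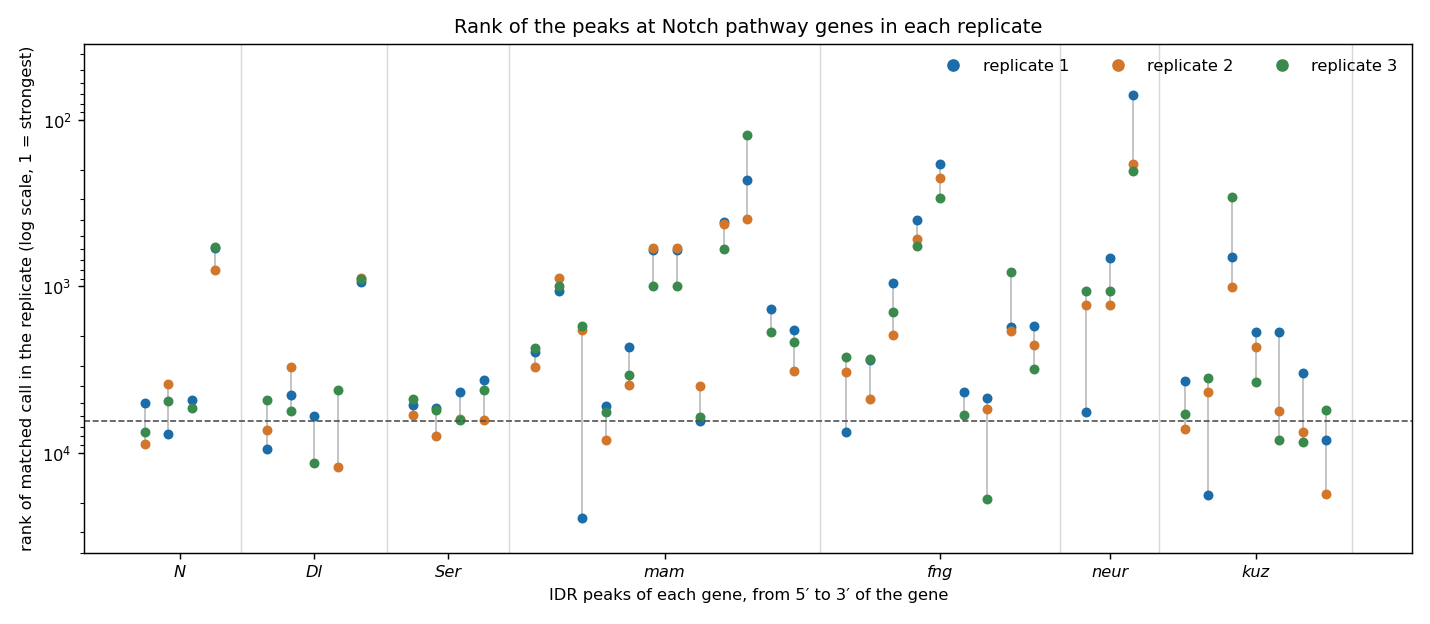
Rank of the call matched to each of the 44 IDR peaks in replicate 1 (blue), 2 (orange) and 3 (green), on a log scale with strong ranks at the top, and a dashed line at rank 6469. The strongest peak of neur has ranks of 71, 183 and 203, and the points of Ser lie near the dashed line.

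Of the 44 peaks, 39 (88.6%) had a call within 200 bp of the summit in every replicate, against 95.9% of the IDR set, and the other 5 had one in 2 replicates. Matched by overlapping intervals in place of summits, 42 of the 44 had a call in every replicate, a share not computed over the IDR set. The nearest call was strong in all 3 replicates for 25 peaks (56.8%, against 64.9% of the set), in 2 for 13 and in 1 for 6. At 4 of the peaks, a stronger call than the nearest also lay within 200 bp in some replicate. Calls lay a median of 24 bp from the summit of the IDR peak. Spearman's rho of signal over the peaks was 0.758 for replicates 1 and 2 (n = 39 peaks), 0.703 for 1 and 3 (n = 43) and 0.878 for 2 and 3 (n = 40). These describe peaks that share a library, and that were kept because the pooled reads were high there. A call shared by neighbouring peaks was counted for each of them, so the peaks are not all separate points.

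In the replicates' own lists, a strong call was present in every replicate for 7 of the 9 genes, beside 39.8% of all protein-coding genes, and a call of any rank in every replicate for the same 7, beside 71.0%. These 7 are the members of 10 kb or more, and the shares for calls were not computed over genes of that length. Together the 9 genes held 174, 148 and 184 calls in replicates 1, 2 and 3 (169 ± 18.6, SD, n = 3), of which 39, 39 and 42 were strong. Per 10 kb this came to 4.38 ± 0.483 calls, against 2.31 ± 0.0646 over all genes, and 1.04 ± 0.0450 strong calls against 0.576 ± 0.00820 (SD, n = 3 each). N had 27, 13 and 20 calls, while mam had 46, 39 and 50 and kuz 36, 42 and 42. In Ser there were 7, 4 and 4 strong calls, against 4 IDR peaks. Away from the IDR peaks, 37 calls of replicate 1 had a partner in both other lists, 12 of them in mam, 7 in fng and 6 in kuz, and none was strong in all 3. The share of such calls over the whole lists was not computed, and mam and kuz are the longest of the 9 genes.

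**Figure D4:**
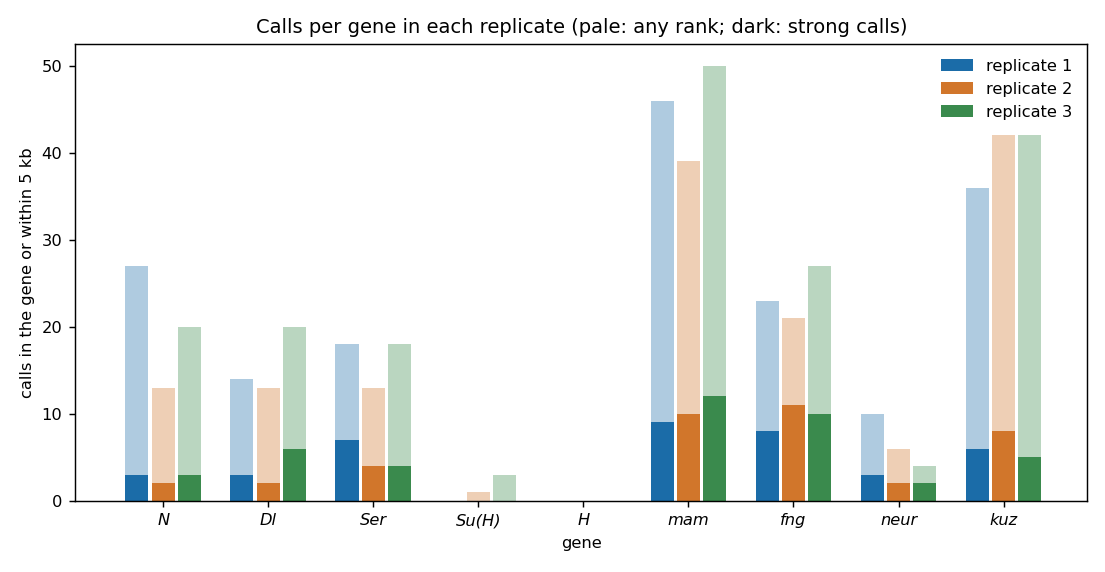
Calls in each gene or within 5 kb in replicate 1 (blue), 2 (orange) and 3 (green), pale for calls of any rank and dark for strong calls. H has none, Su(H) has 0, 1 and 3, and mam has 46, 39 and 50.

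Some neighbouring summits form close pairs. At a spacing of 199 to 212 bp there were 6 pairs, 3 in mam and 1 each in Dl, neur and kuz, so that 12 of the 44 peaks (27.3%) stood within 250 bp of another, against 11.7% of the IDR set. The limit of 250 bp was chosen after the data were seen. The replicates' lists also hold calls about this far apart, such as those of replicate 1 at 23.912 and 24.111 kb from the start of N. Whether the caller sets this spacing was not tested. In 6 of the 44 peaks a call of a replicate was matched to both summits of a pair. With overlapping peaks merged, the genes held 38 regions in place of 44.

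The farthest peaks inside the 5 kb limit were those 4185 bp from kuz, ranked 4809, and 3921 bp from fng, ranked 3867, and the latter was nearer to the body of the coding gene Sems than to fng. Beyond the limit, after the peak 5286 bp from Ser, the next were 7492 bp from Ser, ranked 2106, and 7735 bp from mam, at rank 360 with a signal of 691.

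Among 39 other genes of the pathway, 26 had an IDR peak in the body or within 5 kb, beside the 47.5% of all protein-coding genes, and 8 had one at a start, beside 17.0%. With the gene body alone the count was 6, so it rests largely on flanks. With each peak counted only for the nearest coding gene it was 14. The share of all genes was not computed under either rule, so the fall is not shown to be particular to these genes. The 12 Enhancer of split genes, targets that Notch switches on and that mostly encode repressors, lie together over 43.4 kb and share their peaks. In all, 11 of the 12, counted among the 26 above, had a peak in their window, from only 11 distinct peaks. These peaks ranked 185 to 5847 with a median of 435, and 9 of the 11 were above the middle of the set. Only E(spl)m5-HLH had none. The strongest peak lay between E(spl)mbeta-HLH and E(spl)malpha-BFM, 1796 bp upstream of the latter, with signals of 327, 222 and 349 (299 ± 67.8, SD, n = 3). Another, 143 bp from a start of gro, whose product Groucho is the corepressor that Enhancer of split repressors use, ranked 208 with signals of 323, 224 and 296 (281 ± 51.4, SD, n = 3), and was also counted for E(spl)m7-HLH and E(spl)m8-HLH. A peak 354 bp upstream of E(spl)mdelta-HLH ranked 272 with signals of 348, 162 and 274.

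The other groups hold few genes each, too few to set against each other or against the 47.5% of all protein-coding genes. Of the gamma-secretase genes, which encode the enzyme of the last cut, 1 of 4 had a peak, aph-1 alone; of the Bearded genes, inhibitors of Neuralized, it was 1 of 4. Genes of ubiquitylation and trafficking had 5 of 8, nuclear cofactors 3 of 4, glycosylation genes 2 of 3, metalloproteases 1 of 2 and the bHLH repressors dpn and Hey both. The highest ranks outside the Enhancer of split genes stood near other genes' starts. The peak counted for O-fut1, which encodes an O-fucosyltransferase of Notch, ranked 103 with signals of 381, 358 and 374 (371 ± 11.7, SD, n = 3), but it was 3809 bp from O-fut1 and 133 bp from the start of CG13018. That counted for kul, a metalloprotease gene related to kuz, ranked 177 with signals of 360.3, 289 and 265 and stood 71 bp from the start of CG7601.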

How the data were processed

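Per the labels and the text files deposited with the samples, the files were narrowPeak lists on dm3 and dm6. The dm6 lists were used and the dm3 lists were not. The deposited lists give, for each interval, a signal value and a significance on the −log10 scale, both written by the authors' peak caller. The signal was used as deposited to rank calls, and the −log10 column entered no result. The aligner, peak caller, cut-off, control correction, IDR threshold and read depth were not given in the sources used here. Each of the 6469 IDR peaks matched, in interval and summit, one of the top 6469 pooled calls.

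Genes came from the Ensembl release 115 annotation of the Release 6 genome, with 18277 genes after transposable elements were left out. All 9 members lay at the same position in the RefSeq annotation. Of 40 other pathway genes listed, 39 matched and Bob did not. A replicate call was matched to an IDR peak when it was the nearest with a summit within 200 bp. A start meant that of any annotated transcript of the gene. Motifs were read on both strands of the 201 bp windows, where words may overlap. Coordinates are 1-based. The sequence under the strongest peak of fng is not reported here.

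The members, the lists and the motifs were chosen with earlier results of these data known. Named genes are the members, the genes nearest to their summits, and those of the pathway list with the strongest peaks. Scripts used Python 3.11.15, numpy 2.4.6, pandas 2.3.3 and matplotlib 3.10.9 and were tested on simulated data. Alternatives were other flanks, match distances, start windows, rank limits and window widths, and leaving out each replicate.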

Additional observations from a re-analysis of the deposited data

How the results depend on the processing

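Of 60 alternative values of the counts and medians, 43 were within the limit set for a change. That limit was 1.5 times for a count, and 1 SD over replicates for a median, a share or the mean number of calls per replicate. Leaving out a replicate cannot move the mean number of calls by 1 SD over the same replicates. Those values were thus within the limit by construction. With the gene body alone, 6 other pathway genes had a peak in place of 26, and the members held 126 calls per replicate in place of 169. Counting a peak only for the nearest coding gene left 14 other pathway genes, and the share of all genes was not computed under either rule. With flanks of 2 and 10 kb the members held 144 and 196 calls, and with 2 kb the median rank was 4034. Only peaks above the middle of the IDR set left 20 peaks, 19 of them called in every replicate, 2 members with one at a start, a median rank of 936 and 6 members with a peak, Ser being lost. Windows of 50 and 200 bp to either side had a median GC content of 31.2% and 37.7%, and strong calls of replicates 1, 2 and 3 had 31.8%, 32.8% and 32.8%. The share with a Su(H) core was 18.2% with 200 bp to either side, where all IDR windows had 9.37%. Windows that wide overlap in close pairs, so a core can be counted at both summits of a pair, as at Dl. Such pairs held 27.3% of the members' peaks and 11.7% of the IDR set. For strong calls of replicate 1 the share was 7.69%, where all such calls had 4.25%. The cause was not tested where the construction (fewer peaks, another window) does not show it.

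Leaving out each replicate gave 39 to 43 peaks called in every remaining replicate, 7 members with a strong call and 161 to 179 calls at the members. Of 117 mean signals, 2 moved by over 1.5 times, both at kuz without replicate 1: from 58.3 to 31.8 at the weaker summit of the intron 3 pair and from 43.2 to 28.0 in intron 5. Chosen after seeing the data, merging overlapping peaks gave 38, giving each call to 1 peak left 36 called in every replicate, taking the strongest call within 200 bp in place of the nearest moved 3 of 39 mean signals by over 1 SD, and 7 members had a peak of their own that was strong in every replicate. No paired analysis was possible because the 3 samples form 1 group. With the depth unknown, weak or missing calls cannot be told from too few reads.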
